A study of Homo sapiens with 12 samples.

Results

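The genes described here are the MHC class I presentation genes HLA-B, HLA-C, HLA-E, HLA-F, B2M, TAP1, TAP2, TAPBP and NLRC5. They were taken from the deposited count table by their symbols, and all 9 were found among its 59251 genes. A count in at least 1 library was recorded for 7 of them, and 6 of the 9 (HLA-B, HLA-C, B2M, TAP1, TAPBP and NLRC5) passed edgeR's expression filter and were tested.
The RNA-Seq libraries were made from HL60 cells, a human leukemia line that the labels describe as promyelocytic, so all groups come from 1 line. Cells were left without drug (non-treated cells) or were exposed for 48 h to 1 µM all-trans retinoic acid (ATRA), to 1 µM palbociclib, an inhibitor of the cell cycle kinases CDK4 and CDK6, or to both drugs at these doses (the combination). Each group had 3 libraries, 12 in all. The labels call the libraries of a group biological replicates, without saying how the cultures were kept apart, and p-values measure the spread between them.
Nearly every nucleated cell displays peptides from its own proteins on MHC class I, a complex of a polymorphic heavy chain (HLA-B and HLA-C among others) and the invariant light chain β2-microglobulin, encoded by B2M. Peptides cut by the proteasome are carried into the endoplasmic reticulum by the transporter TAP, formed by TAP1 and TAP2, and tapasin (TAPBP) holds empty class I molecules beside it for loading. NLRC5 is a transactivator of genes of this pathway, among them those of the heavy chains and B2M. It reaches them through the RFX, CREB/ATF and NF-Y factors bound at their promoters. Interferons induce both NLRC5 and its targets.

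Total counts per library ranged from 12230923 to 18679544. Values are CPM, counts scaled to a common library total after TMM normalization in edgeR, and a gene was called at an adjusted p below 0.05 in edgeR's quasi-likelihood test over 13318 genes. These are shares of the RNA sequenced, so fewer cells of a type and less RNA per cell cannot be told apart. Of the 7 promyelocytic markers, 4 were tested, with MPO at 6510 ± 167 CPM (SD, n = 3), SPI1 at 301, CD33 at 93.8 and CTSG at 13.9 CPM in non-treated cells, whereas ELANE, AZU1 and PRTN3 had no count in any library and each is also listed on 1 contig besides its chromosome. Of the lymphoid markers, CD79A and CD3E passed the filter. CD79A was at 16.7, 23.6, 23.1 and 14.2 CPM and CD3E at 2.07, 2.31, 2.99 and 0.812 CPM in non-treated cells and with ATRA, palbociclib and both drugs, and their part in the results was not tested. None of the 5 erythroid and megakaryocytic markers passed the filter.

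Most of these genes are present more than once in the reference genome, and their counts are described with this in view. Except for B2M on chromosome 15 and NLRC5 on chromosome 16, the genes lie in the MHC on chromosome 6, a region for which hg38 also holds alternate haplotype contigs. The table listed exons of every MHC member on 4 to 7 such contigs, and exons of B2M on 1 alternate contig of chromosome 15. NLRC5 was listed on its chromosome alone. As a measure of repetition, each window of 50 bases within the exons of a gene was searched for on the alternate contigs listed for it.
All 2357 windows of HLA-E, the ligand of the natural killer receptor NKG2A, were also on an alternate contig, as were 97.3% of the windows of HLA-F, a heavy chain that can be expressed without peptide. Both genes had 0 counts in all 12 libraries. Every window was also repeated for TAP1 (389 counts over the 12 libraries) and TAPBP (375 counts), and 99.1% for TAP2 (30 counts). The share was 77.3% for HLA-B (67254 counts), 93.1% for HLA-C (87029 counts) and 92.7% for B2M (35926 counts). NLRC5 had 7356 counts. With windows of 100 bases the shares were 52.4% for HLA-B, 79.6% for HLA-C and 86.3% for B2M.
Other MHC genes that every cell uses were read in the same way, as examples chosen for this purpose. RPS18, a ribosomal protein gene with all of its windows repeated, had 8 counts in the 12 libraries together, whereas 66 ribosomal protein genes listed on no other contig had a median of 236776. Of the 8 genes looked at, all with every window repeated, DDX39B and ABCF1 had 0 counts, CSNK2B, GNL1 and RPS18 had 2 to 8, BAG6 had 57, FLOT1 335 and TUBB 586. Of the 513 genes of chromosome 6 that were also listed on alternate contigs, 71.7% had no count, against 53.9% of the 2781 that were not. Among those searched on every contig listed for them, no count was found for 76.5% of the 328 with every window repeated and 69.7% of the 33 with the lowest shares, with 45 of 74 and 6 of 10 genes in the classes between, so that the percentage did not rise steadily with repetition. How reads that match several places were handled is not given in the sources used here. Given this, the count of 0 for HLA-E and HLA-F is not taken as a limit on their expression, and the counts of HLA-B, HLA-C, B2M, TAP1, TAP2 and TAPBP may be incomplete.

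**Figure D1:**
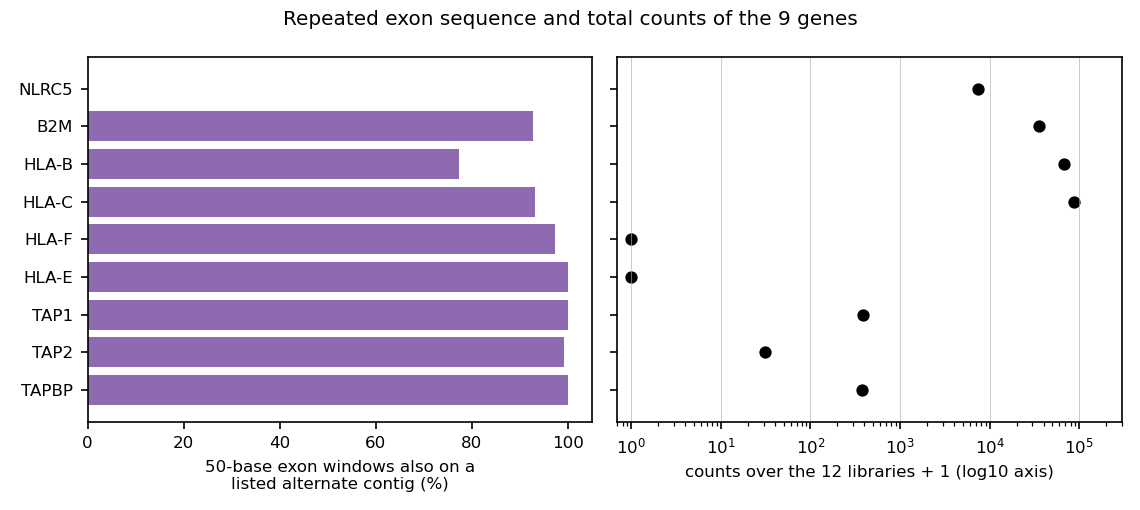
Left, the share (%) of 50-base exon windows of each gene that is also found on an alternate contig listed for it (0 for NLRC5, which is listed on none). Right, the counts of the same gene over the 12 libraries plus 1, on a log10 axis. HLA-E and HLA-F sit at 0 counts and TAP1, TAP2 and TAPBP at 30 to 389, while NLRC5, B2M, HLA-B and HLA-C lie between 7356 and 87029.

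By the table's coordinates (hg38), HLA-B spans chr6:31353875-31357179 and HLA-C chr6:31268749-31272092, both on the minus strand with 8 exons. HLA-E (chr6:30489509-30494194, 7 exons) and HLA-F (chr6:29723434-29738532, 13 exons) lie on the plus strand. TAP1 (chr6:32845209-32853704, 12 exons), TAP2 (chr6:32821831-32838739, 13 exons) and TAPBP (chr6:33299694-33314078, 8 exons) are on the minus strand. B2M lies at chr15:44711517-44718145 with 4 exons and NLRC5 at chr16:56989557-57083520 with 54 exons, both on the plus strand. TAPBP shares 1919 exon bases with RGL2 on the same strand, so that its counts are uncertain, and RGL2 had 39 counts. TAP1 shares 456 exon bases with PSMB8-AS1 on the opposite strand, and HLA-F shares exons with HLA-F-AS1 and RPL23AP1, all of which had 0 counts. NLRC5 shares no exon base with its overlapping neighbour LOC100130044 (0 counts), and B2M and HLA-B span the microRNA genes MIR10393 and MIR6891 (0 counts).

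The 250 bases before the start site are shown for HLA-B, HLA-C, B2M and TAPBP, as examples of genes for both chains and for the loading complex. They were taken from a table of RefSeq promoters (GRCh38.p14), in which 7 of the 9 genes were matched and HLA-E and NLRC5 were not, and are written 5′ to 3′ on the strand of the gene. Capitals mark matches on either strand to any of 6 motifs, which are the CCAAT box bound by NF-Y (CCAAT), the core of a CRE bound by CREB/ATF factors (TGACG), the core of the interferon-stimulated response element or ISRE (GAAANN followed by GAAA), the interferon-γ element GAS (TTCNNNGAA), the NF-kB motif and the direct repeat unit of retinoid receptors (AGGTCA).
HLA-B (chr6:31357180-31357429, minus strand): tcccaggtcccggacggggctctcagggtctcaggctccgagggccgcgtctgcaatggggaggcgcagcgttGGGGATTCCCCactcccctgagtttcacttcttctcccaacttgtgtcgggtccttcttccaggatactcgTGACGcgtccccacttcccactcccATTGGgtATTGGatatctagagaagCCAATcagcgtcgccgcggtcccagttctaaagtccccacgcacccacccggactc
HLA-C (chr6:31272093-31272342, minus strand): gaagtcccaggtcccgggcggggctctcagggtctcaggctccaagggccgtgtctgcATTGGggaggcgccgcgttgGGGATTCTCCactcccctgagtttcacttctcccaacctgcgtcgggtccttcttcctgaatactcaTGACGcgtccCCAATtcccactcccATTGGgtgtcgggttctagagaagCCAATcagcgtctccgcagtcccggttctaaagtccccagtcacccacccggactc
B2M (chr15:44711267-44711516, plus strand): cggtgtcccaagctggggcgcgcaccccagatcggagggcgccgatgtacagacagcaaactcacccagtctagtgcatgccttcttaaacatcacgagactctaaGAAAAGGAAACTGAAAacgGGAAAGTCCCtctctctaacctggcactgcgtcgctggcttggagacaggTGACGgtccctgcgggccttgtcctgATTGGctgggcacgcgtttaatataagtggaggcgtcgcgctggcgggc
TAPBP (chr6:33314079-33314328, minus strand): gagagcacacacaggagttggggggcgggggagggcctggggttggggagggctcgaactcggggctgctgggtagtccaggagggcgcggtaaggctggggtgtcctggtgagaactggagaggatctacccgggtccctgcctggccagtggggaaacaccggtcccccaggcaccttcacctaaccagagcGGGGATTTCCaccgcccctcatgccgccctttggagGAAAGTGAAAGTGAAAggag
The CRE core lay at -106 in HLA-B, -105 in HLA-C and -75 in B2M, counted in bases before the start site, and each of these windows also held at least 1 CCAAT box between the CRE core and the start site. TAP2 held a CRE core at -35. Of all 27305 promoter windows of the same length, 21.7% held the CRE core and 33.0% a CCAAT box. The ISRE core was found in 3.07% of all windows. B2M, TAP1 and TAPBP each held a pair of overlapping ISRE cores, which began at -144 and -138, at -134 and -128 and at -20 and -14, and TAP2 and HLA-F had 1 match each. HLA-B and HLA-C had none. The NF-kB motif was present in HLA-B, where matches on both strands overlap, and in HLA-C, B2M, TAP1 and TAPBP, against 9.57% of all windows. GAS (6.78% of all windows) and the retinoid unit (12.1%) matched none of the 7 windows. A match is a description of letters and not a site, and the absence of one says only that these letters are not in this window.

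In non-treated cells the order of the levels per kilobase of exon on the primary chromosome was HLA-C (197.1 ± 1.90 CPM per kilobase, SD, n = 3), HLA-B (158 ± 5.07), B2M (94.0 ± 1.65), NLRC5 (4.84 ± 0.492), TAP1 (0.557 ± 0.0292), TAPBP (0.334 ± 0.0182) and TAP2 (0.0296 ± 0.0307). No neighbours in this order overlapped among the 3 libraries, whereas with palbociclib and with both drugs TAP1 and TAPBP did. Apart from that of NLRC5, these levels rest on counts that may be incomplete. Per kilobase of the deposited length, which sums exons over all contigs, the order turned, with B2M at 58.4, HLA-C at 28.1 and HLA-B at 26.3 CPM.

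HLA-B, a heavy chain gene, was at 242.1, 250.4 and 234.9 CPM in the 3 non-treated libraries, at 450.4, 422.6 and 427.8 CPM with ATRA, at 305.1, 297.4 and 300.8 CPM with palbociclib and at 469.7, 501.0 and 500.2 CPM with both drugs. No libraries of different groups overlapped on this scale, and the order was non-treated, palbociclib, ATRA and combination. The place of the combination above ATRA held with TMM scaling and turned with library size alone (log2 fold change -0.13, adjusted p = 0.000582, edgeR). Against non-treated cells the log2 fold change was 0.84 ± 0.04 (SE) with ATRA (adjusted p = 4.00e-25, edgeR), 0.31 ± 0.04 with palbociclib (9.88e-10) and 1.02 ± 0.04 with both drugs (7.10e-29), the last a 2.02-fold level.
HLA-C, a heavy chain that is also the main ligand of the killer cell immunoglobulin-like receptors, was at 307.0, 301.2 and 303.8 CPM in non-treated cells, 549.9, 529.3 and 533.0 CPM with ATRA, 393.9, 393.8 and 406.1 CPM with palbociclib and 655.9, 663.0 and 694.7 CPM with both drugs. Its 4 groups did not overlap either and took the same order, although with library size alone the combination was at 0.01 relative to ATRA (adjusted p = 0.688, edgeR). The log2 fold change was 0.82 ± 0.04 with ATRA (adjusted p = 4.67e-25, edgeR), 0.39 ± 0.04 with palbociclib (1.09e-12) and 1.14 ± 0.04 with both drugs (2.13e-31), the last a 2.21-fold level.
The light chain gene B2M had a different order. It was at 142.3, 146.2 and 147.1 CPM in non-treated cells, 195.1, 191.2 and 185.8 CPM with ATRA, 203.9, 197.4 and 198.7 CPM with palbociclib and 234.2, 238.1 and 246.7 CPM with both drugs. The ATRA and palbociclib libraries lay side by side without overlap, between the non-treated and the combination libraries. Its log2 fold change was 0.39 ± 0.04 with ATRA (adjusted p = 4.41e-13, edgeR), 0.46 ± 0.04 with palbociclib (3.80e-15) and 0.72 ± 0.04 with both drugs (7.09e-23). With library size alone the last was 0.46, beside 0.47 with palbociclib on that scale.

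**Figure D2:**
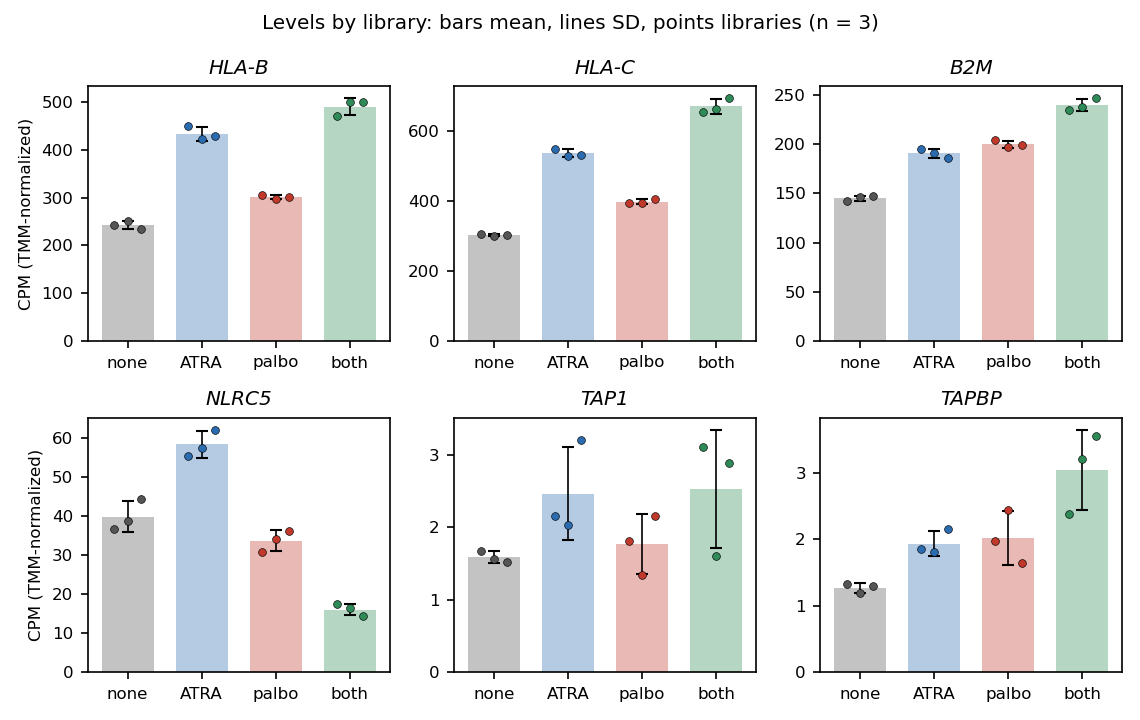
Levels (TMM-normalized CPM, linear axes from 0) of the 6 tested genes in non-treated cells (none) and with ATRA, palbociclib (palbo) or both drugs (both). Points are libraries, bars means and lines SD (n = 3). With this scaling HLA-B, HLA-C and B2M were highest with both drugs (with library size alone not HLA-B and B2M), whereas NLRC5 was lowest there, at 14.5 to 17.4 CPM.

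NLRC5, the transactivator, was higher with ATRA and lower with both drugs. It was at 36.6, 38.6 and 44.4 CPM in non-treated cells, 55.4, 57.5 and 62.1 CPM with ATRA, 30.9, 34.1 and 36.2 CPM with palbociclib and 17.4, 16.4 and 14.5 CPM with both drugs. The 4 groups did not overlap, with ATRA highest and the combination lowest. The log2 fold change was 0.55 ± 0.07 with ATRA (adjusted p = 3.27e-10, edgeR), a 1.46-fold level. With palbociclib it was -0.25 ± 0.07 (adjusted p = 0.00231, edgeR), and without the highest non-treated library, replicate 3, it was -0.16 with an adjusted p of 0.0685. With both drugs it was -1.31 ± 0.09 (adjusted p = 2.58e-19, edgeR), which left 0.402 of the non-treated level.
The same direction was found against either drug alone. NLRC5 was at a log2 fold change of -1.86 ± 0.09 in the combination relative to ATRA (adjusted p = 9.09e-26, edgeR) and of -1.07 ± 0.09 relative to palbociclib (1.24e-15). Leaving out any 1 library kept the first between -1.92 and -1.79 and the second between -1.13 and -0.998.

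The peptide loading genes were read from few counts. TAP1 had 18 to 58 counts per library. It was at 1.68, 1.57 and 1.52 CPM in non-treated cells, 2.15, 2.04 and 3.20 CPM with ATRA, 1.81, 1.34 and 2.16 CPM with palbociclib and 3.11, 1.60 and 2.89 CPM with both drugs. Only the ATRA libraries stood apart from the non-treated ones. The log2 fold change was 0.64 ± 0.28 with ATRA (adjusted p = 0.0356, edgeR) and 0.67 ± 0.29 with both drugs (0.0307), and 0.16 with palbociclib (95% interval -0.42 to 0.74, adjusted p = 0.656). The call with ATRA was lost without ATRA replicate 3 (0.40, adjusted p = 0.267) and without any 1 of the 3 non-treated libraries, and the call with both drugs was lost without non-treated replicate 2 or 3 or combination replicate 1 or 3 (lowest 0.51, adjusted p = 0.156), as well as with library size alone (0.41, adjusted p = 0.191) and with no filter (0.57, 0.0863).
TAPBP had 19 to 43 counts per library. It was at 1.32, 1.19 and 1.29 CPM in non-treated cells, 1.85, 1.81 and 2.15 CPM with ATRA, 1.97, 2.44 and 1.64 CPM with palbociclib and 2.38, 3.21 and 3.55 CPM with both drugs. Every treated library was above the non-treated ones, while the ATRA and palbociclib libraries overlapped each other. The log2 fold change was 1.26 ± 0.28 with both drugs (adjusted p = 5.52e-05, edgeR), 0.66 ± 0.28 with palbociclib (0.0386) and 0.61 with ATRA (95% interval 0.04 to 1.18, adjusted p = 0.0510), which was not called but was with DESeq2's size factors, with library size alone, with at least 10 counts in every library and with only the groups compared (lowest adjusted p = 0.0250). The call with palbociclib was lost without any 1 of the non-treated libraries or without palbociclib replicate 1 or 2 (lowest 0.51, adjusted p = 0.176), with no filter (0.0673) and with DESeq2 (0.0540).
TAP2, the partner of TAP1, had 0 to 6 counts per library and did not pass the filter. Its mean was 0.182 CPM in non-treated cells, 0.116 CPM with ATRA, 0.213 CPM with palbociclib and 0.117 CPM with both drugs. A fit without the filter called it in none of the 6 comparisons (lowest adjusted p = 0.572, edgeR, with none at an unadjusted p below 0.05 either), so no difference was detectable at this depth.

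With ATRA, 5 of the 6 tested genes were called higher and none lower, where 67.6% of all tested genes were called, 32.1% higher and 35.5% lower. The median log2 fold change of the 6 was 0.62 and that of all tested genes -0.03. With palbociclib, 4 were called higher and NLRC5 lower, against a background of 56.2% called, 28.3% higher and 27.9% lower, with medians of 0.35 and 0.02. With both drugs, 5 were called higher and NLRC5 lower, against 81.7% called, 41.0% higher and 40.7% lower, with medians of 0.87 and 0.02. These 3 comparisons share the non-treated libraries. The libraries did not overlap for 6 of the 6 with ATRA, 5 with palbociclib and 5 with both drugs, where they did not overlap for 70.3%, 60.7% and 81.8% of all tested genes. HLA-E, HLA-F and TAP2 are not among the 6, and a count called among so few genes does not set them apart from a background in which most genes were called.

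**Figure D3:**
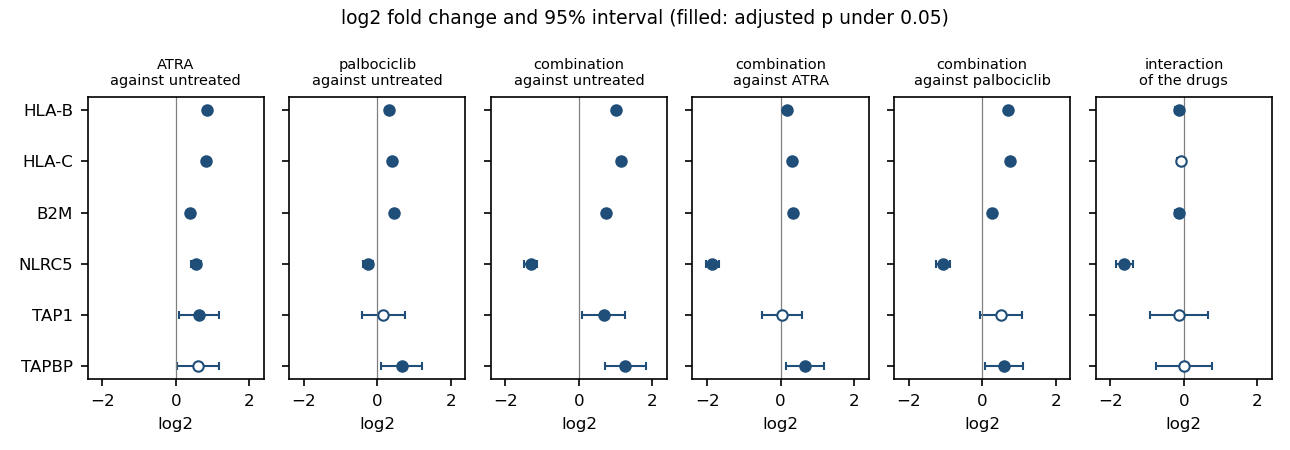
log2 fold changes (horizontal axes) of the 6 tested genes with 95% intervals, 1 panel for each comparison and the last for the interaction, where untreated means non-treated cells and combination both drugs. Filled points are called at an adjusted p below 0.05. NLRC5 lies between -1.07 and -1.86 in the 3 comparisons of the combination, and the intervals of TAP1 and TAPBP are the widest.

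With TMM scaling, the chain genes were higher again when palbociclib was added to ATRA. Against ATRA alone, the log2 fold change of the combination was 0.18 ± 0.04 for HLA-B (adjusted p = 4.24e-05, edgeR), 0.32 ± 0.04 for HLA-C (8.21e-11), 0.33 ± 0.04 for B2M (5.72e-11), 0.66 ± 0.26 for TAPBP (0.0214) and 0.04 for TAP1 (95% interval -0.51 to 0.58, adjusted p = 0.914). Together, 4 genes were called higher and NLRC5 lower, where 69.8% of all tested genes were called, 36.9% higher and 32.8% lower, and 5 did not overlap (71.9% of all tested genes). These rises depended on the scaling. The TMM factors of the combination libraries were 0.840 to 0.893 and those of the other libraries 1.03 to 1.07, and with library size alone the median of all tested genes moved from 0.04 to -0.26. On that scale HLA-B was at -0.13, HLA-C at 0.01, B2M at 0.02 (adjusted p = 0.552) and TAPBP at 0.35 (0.215). Relative to that median, HLA-B was 0.13, HLA-C 0.28 and B2M 0.29 higher. The fall of NLRC5 was -2.17 on that scale. With no filter HLA-B was at 0.08 (adjusted p = 0.155) and TAPBP at 0.56 (0.0786). Without ATRA replicate 1 or 2 or combination replicate 2 or 3, TAPBP was not called (highest adjusted p = 0.121).
Against palbociclib alone, the log2 fold change of the combination was 0.70 ± 0.04 for HLA-B (adjusted p = 2.05e-22, edgeR), 0.75 ± 0.04 for HLA-C (5.53e-24), 0.26 ± 0.04 for B2M (1.81e-08) and 0.60 ± 0.26 for TAPBP (0.0290), and 0.51 for TAP1 (95% interval -0.06 to 1.08, adjusted p = 0.0945). Here 4 genes were called higher and NLRC5 lower, against 78.6% called, 39.1% higher and 39.5% lower, and 4 did not overlap (78.9%). With library size alone, HLA-B and HLA-C stayed higher (0.43 and 0.48), whereas B2M was -0.02 (adjusted p = 0.664) and TAPBP 0.32 (0.232), with a median of all genes at -0.28. Without palbociclib replicate 1 or 3 or combination replicate 2 or 3, TAPBP was not called (highest adjusted p = 0.149), nor was it with no filter (0.50, adjusted p = 0.110).

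Whether the drugs acted independently on the log2 scale was tested as the interaction, the log2 fold change with both drugs minus the sum of those with either. If fold changes multiplied, the single-drug levels of NLRC5, 1.46 and 0.846 of that in non-treated cells, would give 1.24, and the level measured with both drugs was 0.404. The interaction of NLRC5 was -1.62 ± 0.11 (adjusted p = 8.96e-18, edgeR). HLA-B reached 2.02 of its non-treated level where the product was 2.22, and B2M 1.65 where it was 1.81. Their interactions were -0.14 ± 0.05 for HLA-B (adjusted p = 0.0310, edgeR) and -0.13 ± 0.05 for B2M (0.0341), and both were lost without ATRA replicate 1, palbociclib replicate 1 or combination replicate 1. That of HLA-B was also lost without non-treated replicate 3, and that of B2M without non-treated replicate 1, ATRA replicate 2 or combination replicate 2. For HLA-C the interaction was -0.07 (95% interval -0.17 to 0.04, adjusted p = 0.298). With library size alone the interaction was -0.45 for HLA-B, -0.45 for B2M and -0.39 for HLA-C (adjusted p = 2.57e-09), where the median of all tested genes was -0.34. TAP1 (-0.13, 95% interval -0.92 to 0.67) and TAPBP (-0.0048, -0.77 to 0.76) were not called. The interaction was called for 51.4% of all tested genes, 24.5% positive and 27.0% negative, and for 3 of the 6, all negative.

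Ratios of counts within a library do not depend on the scaling. NLRC5 counts were 16.5% of HLA-B counts in non-treated cells, 13.5% with ATRA, 11.2% with palbociclib and 3.29% with both drugs (arithmetic means of the library ratios, n = 3). On the log2 scale the ratio was -2.61 ± 0.18 (SD) in non-treated cells and -4.93 ± 0.18 with both drugs, and the libraries of these groups did not overlap. Relative to B2M, NLRC5 was at 27.5%, 30.6%, 16.9% and 6.73% in the same order of groups. The heavy chains kept nearly the same proportion to each other, with HLA-B at 79.8% of HLA-C in non-treated cells, 80.7% with ATRA, 75.7% with palbociclib and 73.1% with both drugs, and the combination libraries lay below the non-treated ones without overlap. HLA-C relative to B2M was at a log2 ratio of 1.07 ± 0.04 in non-treated cells and 0.99 ± 0.04 with palbociclib, which lay just below without overlap. It was at 1.49 ± 0.03 with ATRA and 1.49 ± 0.01 with both drugs, which overlapped each other and lay above the other groups.

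**Figure D4:**
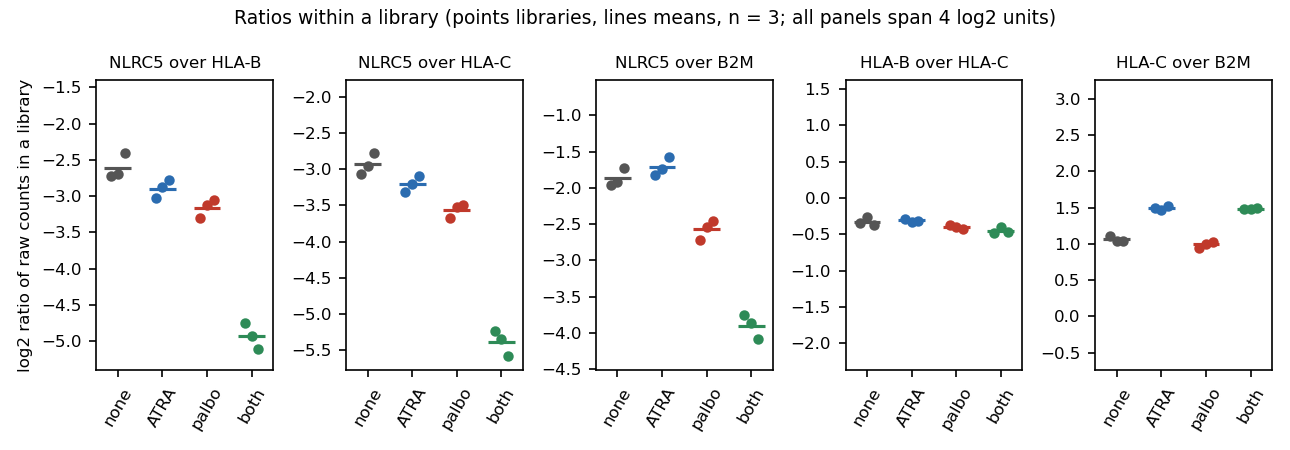
log2 ratios of raw counts within a library (vertical axes, each spanning the same number of log2 units) in non-treated cells (none) and with ATRA, palbociclib (palbo) or both drugs (both). Points are libraries and lines means (n = 3). NLRC5 falls against HLA-B, HLA-C and B2M with both drugs, to a log2 ratio of -4.93 against HLA-B, whereas HLA-B over HLA-C stays between -0.48 and -0.27.

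The other genes of the pathway are given by lists compiled from general knowledge, and their counts stand beside the shares of all tested genes called higher and lower, which were 32.1% and 35.5% with ATRA, 28.3% and 27.9% with palbociclib and 41.0% and 40.7% with both drugs. Among the 16 regulators of class I transcription, 15 were tested. With ATRA 8 rose and 4 fell, and with palbociclib 5 and 5. With both drugs 11 rose and 4 fell, where 41.0% of all tested genes rose and 40.7% fell. With library size alone 8 rose and 4 fell with both drugs, where 4375 of 13318 tested genes rose and 6431 fell. With TMM scaling the median log2 fold change of the 15 with both drugs was 0.46, against 0.02 for all tested genes. IRF1, an interferon-induced activator of class I promoters, was at 10.9 CPM in non-treated cells, 75.6 CPM with ATRA, 10.5 CPM with palbociclib and 72.1 CPM with both drugs, with a log2 fold change of 2.79 with ATRA (adjusted p = 1.35e-34, edgeR). STAT2 and IRF2 also rose with both drugs, by 1.63 and 1.55. RFXAP, a subunit of the RFX complex through which NLRC5 reaches DNA, fell from 28.6 CPM to 17.9 CPM with ATRA, 13.8 CPM with palbociclib and 4.62 CPM with both drugs, a log2 fold change of -2.63 (adjusted p = 1.01e-24, edgeR). Of the other RFX subunits, RFX5 was at -0.21 and RFXANK at -0.12, a call that was lost with DESeq2's size factors. NFYB, a subunit of the CCAAT-binding factor NF-Y, fell by 1.41, whereas the subunits NFYA and NFYC were called higher, by 0.46 and 0.34 (NFYC not with library size alone, 0.07, adjusted p = 0.207). RFXANK, NFYA and NFYC were named after their values were seen.
Of the 10 interferon ligands, receptors and kinases, 7 were tested, all of them receptors or kinases. All 7 were called higher in each of the 3 comparisons with non-treated cells, where 32.1%, 28.3% and 41.0% of all tested genes were. With library size alone all 7 were called higher too, where 4516, 3841 and 4375 of 13318 tested genes were. With TMM scaling the median of the 7 was 1.61 with both drugs, against 0.02 for all tested genes. JAK2, a kinase of the interferon-γ receptor, rose from 15.1 CPM to 69.2 CPM with ATRA and 84.6 CPM with both drugs, and IFNGR2, a chain of that receptor, rose by 2.60 with both drugs. The ligands IFNA1 and IFNG had no count and IFNB1 had 1 count in 1 library.
Of the 14 loading and trimming genes, 4 were called higher and 9 lower with ATRA, and 7 and 2 with palbociclib. With both drugs 5 were called higher and 8 lower. In either direction, 67.6%, 56.2% and 81.7% of all tested genes were called in these comparisons, and 13 of the 14 with both drugs. With library size alone 4 were called higher and 10 lower with both drugs, where 4375 of 13318 tested genes were higher and 6431 lower. With TMM scaling the median of the 14 with both drugs was -0.31, against 0.02 for all tested genes. CALR, the chaperone calreticulin of the loading complex, was at 2727 CPM in non-treated cells, 746 CPM with ATRA, 3504 CPM with palbociclib and 492 CPM with both drugs, and its log2 fold change with both drugs was -2.47 (adjusted p = 8.70e-43, edgeR). THOP1, a cytosolic peptidase that destroys peptides, and CANX, the chaperone calnexin, fell by 2.18 and 1.59. TAPBPL, the peptide editor related to tapasin, rose by 2.24, LNPEP, an aminopeptidase of endosomes, by 0.96 and ERAP1, the trimming aminopeptidase, by 0.83.
Among the 6 immunoproteasome and activator genes, 5 were tested. With ATRA, PSMB10, PSME1, PSME2 and PSMB8 were called higher and PSME3, which forms a different activator, lower, and 3 and 1 were called so with both drugs, where 41.0% and 40.7% of all tested genes were. PSMB10 went from 60.9 CPM to 101.8 CPM with ATRA and 99.7 CPM with both drugs. PSMB8 and PSMB9, which lie beside TAP1 and have every window repeated on alternate contigs, were at 19.8 CPM and at no count in non-treated cells. Of the 5 regulators of surface class I, 4 were called higher and MARCHF9, a ubiquitin ligase, lower with both drugs, beside the same 41.0% and 40.7%. With library size alone 3 were called higher and 1 lower, where 4375 of 13318 tested genes were higher and 6431 lower. SUSD6 and TMEM127, which together with WWP2 send class I molecules to lysosomes, rose with both drugs by 3.13 and 1.80, and WWP2 by 0.92. SUSD6 was at 11.7 CPM in non-treated cells and 102.7 CPM with both drugs.

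**Figure D5:**
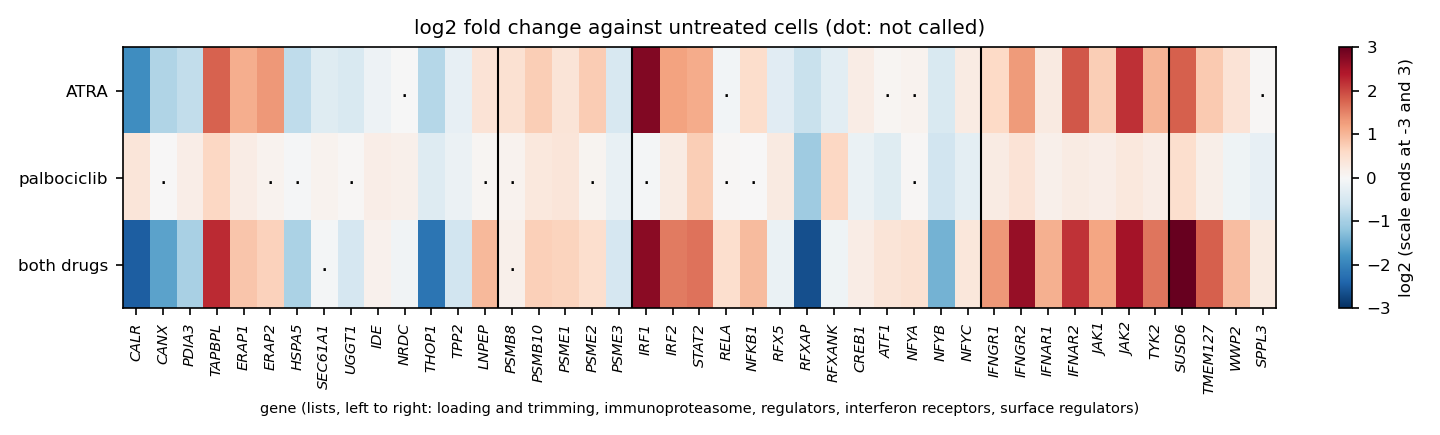
log2 fold changes (colour, scale ends at -3 and 3) against non-treated cells of 43 tested genes with a mean of at least 5 CPM, in 5 pathway lists separated by black lines. Rows are ATRA, palbociclib and both drugs, and a dot marks a gene that was not called. IRF1 is high in both rows with ATRA, CALR is low in both, and RFXAP is lowest with both drugs.

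Of the 10 other class I and class I-like chains, 4 passed the filter, of which FCGRT and CD1D, with 0 to 6 counts in each non-treated library, did so through the treated groups. MR1, which presents vitamin B metabolites, was at 12.4, 41.4, 23.3 and 96.5 CPM in non-treated, ATRA, palbociclib and combination libraries. Of the 12 MHC class II genes, CD74 and CIITA were tested. CD74, the invariant chain, was at 0.262 CPM in non-treated cells and 1.08 CPM with both drugs, from 3 to 14 counts per library in these groups, and passed the filter through the combination alone. CIITA, the class II counterpart of NLRC5, fell with ATRA (-0.94, adjusted p = 0.0158, edgeR) and with both drugs (-1.13, 0.00770). Only 2 of 8 NKG2D ligands (MICA and MICB) and 1 of 9 receptors that bind class I (LILRB2) were tested. The genes of these last lists were named after their values were seen.

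Genes whose profile was most like that of NLRC5 were sought among 8223 tested genes with a mean of at least 10 CPM, by Pearson's correlation of log2 CPM over the 12 libraries, of which those of a group are not independent points. The 5 closest included CKAP2 (0.984), ACTN4 (0.983), CCDC18 (0.983) and CDC42EP4 (0.982). CKAP2, a spindle protein, was at 219 CPM in non-treated cells, 296 CPM with ATRA, 165 CPM with palbociclib and 63.3 CPM with both drugs. The closest to the mean of the 6 tested members were TK2 (0.988), CD300LF (0.984), WAS (0.984), BIN2 (0.983) and CYBB (0.983), the last a subunit of the phagocyte oxidase that rose from 131 to 3013 CPM with both drugs.
Cell cycle and myeloid genes moved in the same libraries. All 5 proliferation markers were called lower with palbociclib and with both drugs (27.9% and 40.7% of all tested genes), and 4 were called higher with ATRA (32.1%). Of the retinoid-induced genes, CD38 was at 0.179 CPM in non-treated cells and 399 CPM with ATRA and TGM2 at 0.0200 and 2021 CPM, and both passed the filter through the groups with ATRA. RARB (2 to 8 counts per library in non-treated cells, 4 to 8 with ATRA) and CYP26A1 (0 to 2 over all 12 libraries) did not pass it. MKI67 was at 663 CPM in non-treated cells, 1027 CPM with ATRA, 21.0 CPM with palbociclib and 9.81 CPM with both drugs. ITGAM, which encodes the myeloid integrin CD11b, was at 9.24, 273, 24.2 and 589 CPM, and MPO at 6510, 292, 3465 and 27.9 CPM. The other tested promyelocytic markers differed in course, with CTSG at 13.9, 0.622, 3.25 and 0.638 CPM, CD33 at 93.8, 77.8, 118 and 99.7 CPM and SPI1 at 301, 463, 361 and 854 CPM. The part of these genes in the results on the class I genes was not tested.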

How the data were processed

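RNA was measured by RNA-Seq in 12 libraries of HL60 cells. The authors trimmed reads with Trimmomatic 0.33, aligned them with STAR 2.7.11a to hg38, used RefSeq gene models, and deposited raw counts per gene as whole numbers with no normalization. They name RSEM for counting, whereas the table has the layout of featureCounts. Multi-mapping and strand settings are not given in the sources used here. Lengths in the table sum exons over all contigs, so levels per kilobase used the exons on the primary chromosome.
Groups were taken from the labels. Genes were filtered with filterByExpr over the 4 groups (13318 kept), scaled by TMM and tested with edgeR 4.0.16 (R 4.3.3) by a quasi-likelihood F test with 8 residual degrees of freedom and Benjamini-Hochberg adjustment over all tested genes, at 0.05, in 5 comparisons and the interaction of the drugs. The biological coefficient of variation was 3.70% over all genes. The script for this test was first checked on simulated counts with known changes. Standard errors came from the fit's weights and quasi-dispersion. The members and lists were chosen with earlier results of these data known. Members were all named. Some other genes are counted in their lists and not reported here by name. Genes of other lists were named as the highest and lowest log2 fold changes with both drugs, up to 3 each way, among called genes with a mean of at least 5 CPM, lists of up to 6 genes could be named whole, and any other was named after its values were seen. Exon windows of 50 and 100 bases were matched against hg38. Alternatives were DESeq2 1.42.0, its size factors, library size alone, TMM on genes of primary chromosomes, no filter or at least 10 counts in every library, only the groups compared, the replicate number as a block, the deposited length and leaving out each library. Libraries of a group differed by more than sampling noise. Total counts of 12230923 to 18679544 set the counting error of genes with few counts, and reads that carry no molecular identifier cannot be taken as independent molecules. Figures used matplotlib 3.10.9 in python 3.11.15.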

Additional observations from a re-analysis of the deposited data

Results flagged for a closer look

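The effect of ATRA on 3 genes differed between cells with and without palbociclib by the test of the interaction itself (edgeR's quasi-likelihood test, Benjamini-Hochberg adjustment). For NLRC5 the interaction was -1.62 ± 0.11 (SE, adjusted p = 8.96e-18), and it lay between -1.71 and -1.54 when any 1 library was left out. For HLA-B it was -0.14 ± 0.05 (adjusted p = 0.0310) and for B2M -0.13 ± 0.05 (adjusted p = 0.0341), and these calls were lost in 4 and 6 of the 12 fits that left out 1 library (highest adjusted p = 0.0919 and 0.107). The interaction was called for 51.4% of all tested genes.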

How the results depend on the processing

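Scaling by library size alone changed most. The members called fell from 5 to 2 for the combination against ATRA and from 5 to 3 against palbociclib. Of 13318 tested genes, 9368 and 10361 were called on that scale, where the main fit called 9291 and 10474. HLA-B against ATRA turned to -0.13 (adjusted p = 0.000582, edgeR) and B2M against palbociclib to -0.017 (adjusted p = 0.664). On that scale the share of called genes that were higher went from 50.2% to 40.5% for the combination against non-treated cells, from 53.0% to 31.6% against ATRA, from 49.8% to 36.7% against palbociclib and from 47.6% to 18.5% for the interaction, with medians of all genes between -0.34 and -0.25. With no filter, 3 members were called for the combination against ATRA, where 9196 of 28097 genes were called, and HLA-B was 0.08 (adjusted p = 0.155). Leaving out 1 library gave 4 to 5 members called with ATRA, 3 to 5 with palbociclib (3 without non-treated replicate 3), 5 to 6 with both drugs, 4 to 5 against either drug and 1 to 3 for the interaction (1 without replicate 1 of ATRA, palbociclib or the combination). Of 13651 to 13739 tested genes, these fits called 8613 to 9161 with ATRA, 7000 to 7620 with palbociclib and 10678 to 11102 with both drugs. They called 8909 to 9422 against ATRA, 10225 to 10657 against palbociclib and 6503 to 6693 for the interaction.
Same-numbered libraries deviated with correlations of -0.114 to 0.07, and 0 of 18 pairs were above 0.1, so no shared effect of the replicate number was seen. With 3 libraries a group, this cannot say whether cultures of the same number were run together. With the replicate block, 5, 5, 6, 5, 5 and 3 members were called in the 6 comparisons, and none of the 36 calls changed. Of 13318 tested genes, 8916, 7393, 10824, 9213, 10416 and 6775 were called with the block. Of the other settings, TMM on genes of primary chromosomes also changed none of 36, and DESeq2, its size factors and at least 10 counts in every library changed 1 each, all of TAPBP. Of the changes over all settings, 1 was of NLRC5, and TAPBP lost a call in 19 and gained one in 4. For the combination against non-treated cells, NLRC5 lay between -1.58 and -1.24 over all alternatives run. TAP1 and TAPBP were limited by their 18 to 58 counts per library, HLA-E and HLA-F had no count, and TAP2 had too few to pass the filter.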
